A study of Rattus norvegicus with 56 samples.

Results

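The livers of female rats on a high-fat, high-fructose diet (HFhf) were compared between zeitgeber time 16 (ZT16) and ZT4, that is 16 h and 4 h after lights on in a 12 h light and 12 h dark cycle. The comparison used 7 of the 56 libraries of the study, chosen by their labels for sex, diet and time: 4 at ZT16, in the dark phase, and 3 at ZT4, in the light phase. All 7 came from adult offspring of Sprague-Dawley rats, taken at day 180. All 7 shared the same diet history, a Western diet plus drinking water with 25% fructose, which began in the dams at gestation day 11 and went on in the offspring. The measurement is RNA sequencing of whole liver, as read counts per gene.

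Other groups were used only to test whether the time effect differed. CON females (3 libraries at each time) ate regular chow throughout. IUGR-HFhf females (4 at each time) were born to dams whose calories were cut by 50% between gestation day 10 and birth, and which then received the HFhf diet. HFhf males (3 at ZT4 and 4 at ZT16) had the same diet as the 7 libraries. The labels name no litter and no feeding state, and they do not state that each library is a separate animal. The p-values measure the spread between libraries within groups, pooled over all 56 libraries, and that spread may be technical. Although the organism is given as rat, the tissue label says mouse liver.

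The liver keeps time with a transcriptional loop. The activators BMAL1 (gene Arntl), CLOCK and NPAS2 drive the Per and Cry genes, whose proteins repress them, and the nuclear receptors REV-ERB alpha and beta (Nr1d1, Nr1d2) close a further loop on Arntl and Npas2. Factors such as DBP and TEF carry the rhythm to genes of drug, sterol and energy metabolism, and meals set many of the same genes. Rats feed mostly in the dark phase.

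At ZT4 the depth was 5.94 M to 8.68 M counted reads per library, and at ZT16 it was 9.53 M to 15.1 M, so every ZT16 library was deeper than every ZT4 library. With the 7 libraries thinned to the total of the shallowest, 488 genes were higher and 441 lower, of which 439 and 381 were among those called at full depth. The Y-linked Eif2s3y was listed at 0 CPM in all 7 libraries and was at least 27.3 CPM in the HFhf male libraries. CPM are read counts scaled to the size of the library. Summed markers of hepatocytes were 294200 to 374800 CPM at ZT4 and 259600 to 400100 CPM at ZT16. None of the 73 tested markers of 12 cell types was called in edgeR, with 4 at an unadjusted p under 0.05, and DESeq2 called 1, a hepatocyte marker. The summed level of each list overlapped between the times. Skeletal muscle markers summed to 0.503 to 1.70 CPM at ZT4 and 1.12 to 2.10 CPM at ZT16, with Myh2, Myh4, Tnni2 and Myl1 at 0 in all 7 libraries. In bulk tissue, fewer cells of a type and less RNA per cell cannot be told apart.

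Of 11047 genes tested, 535 were higher at ZT16, 4.84% of those tested, and 476 were lower, 4.31%. A gene was called when its adjusted p was under 0.05 in edgeR's quasi-likelihood test with Benjamini-Hochberg adjustment, the rule behind every "rose" and "fell" here. At an unadjusted p under 0.05 there were 2594 genes. The median size of the change was 0.635 on the log2 scale among the genes that rose and 0.63 among those that fell. A change of at least 1 was reached by 109 genes that rose and 92 that fell. CPM of the ZT4 and ZT16 libraries did not overlap in 500 of the genes that rose and 424 of those that fell, and in 21.8% of all genes tested. The counts rested on single libraries: without ZT4 replicate 1 there were 168 higher and 211 lower, without ZT4 replicate 3 there were 214 and 248, and without ZT16 replicate 3 there were 354 and 322. Of 100 called genes selected by the naming rule, 45 were called with each of the 7 libraries left out in turn. The genes described below are among those 45 unless a sentence says otherwise.

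The repressor genes Per1, Per2, Cry1 and Cry2 rose between ZT4 and ZT16, while the activator gene Npas2 and the receptor gene Nr1d1 fell. These were 4 rises and 2 falls among 16 core clock genes tested, against 4.84% and 4.31% of all genes tested. The median log2 fold change of the list was 0.32 against 0 over all genes tested. Per2, a period repressor, was 7.55, 9.27 and 11.4 CPM in the ZT4 libraries and 110, 132, 92.9 and 117 CPM in the ZT16 libraries. The groups were far apart, a rise of 3.59 on the log2 scale (SE 0.46, adjusted p = 3.94e-06). Cry1, a cryptochrome repressor, was 4.41, 8.04 and 2.48 CPM at ZT4 and 24.5, 25.8, 19.3 and 22.8 CPM at ZT16. Its lowest ZT16 library was above its highest ZT4 library, and it rose by 2.26 on the log2 scale (SE 0.31, adjusted p = 4.97e-06).

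Per1 was 3.65, 10.8 and 11.9 CPM at ZT4 and 51.4, 41, 25.9 and 29.3 CPM at ZT16. The groups did not overlap and its log2 fold change was 2.09 (SE 0.56, adjusted p = 0.0134), a call that was lost without ZT4 replicate 1 (adjusted p = 0.12). Cry2 rose by less, 0.58 (SE 0.19, adjusted p = 0.047), and its call was lost with any of the 7 libraries left out (adjusted p from 0.057 to 0.17).

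Npas2, which pairs with BMAL1 as CLOCK does, was 42.5, 41.8 and 32.5 CPM at ZT4 and 1.98, 1.22, 0.903 and 0.875 CPM at ZT16. It had the largest fall of the named genes, at -4.87 on the log2 scale (SE 0.69, adjusted p = 1.69e-05). Nr1d1, which encodes REV-ERB alpha, was 73, 73.2 and 129 CPM at ZT4 and 3.44, 12.4, 10.6 and 8.53 CPM at ZT16. Each ZT16 library was under each ZT4 library, and the change was -3.41 (SE 0.53, adjusted p = 5.28e-05).

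ZT4 replicate 3 lay apart from the other ZT4 libraries in several clock genes, though in Per2, Npas2 and Nr1d1 it lay on the ZT4 side. The sample titles carry numbers, which were split here into a lower and an upper run that the labels do not name. ZT16 replicates 3 and 4 (numbers 94 and 96) are in the upper run. ZT4 replicate 3 (number 83) is the only ZT4 library there, as ZT4 replicates 1 and 2 are numbers 59 and 60. It was used as labelled, and whether its time label is right was not tested. Arntl was 44 and 50.5 CPM in ZT4 replicates 1 and 2, 24.1 CPM in ZT4 replicate 3, and 11.5 to 20.3 CPM at ZT16. The times did not overlap, but Arntl did not pass the test (-1.25, SE 0.53, adjusted p = 0.138, and adjusted p = 0.134 without ZT4 replicate 3). It passed with the 7 libraries alone (adjusted p = 0.0258), and in the 41 libraries that leave out the growth-restricted chow group, IUGR-RC, both without (adjusted p = 0.0343) and with the run as a term (adjusted p = 0.0413). Per3 was 7.17, 7.69 and 24.8 CPM at ZT4 and 40.4 to 51.7 CPM at ZT16, with a log2 fold change of 1.73 (adjusted p = 0.0663) that became 2.56 (adjusted p = 0.0428) without ZT4 replicate 3 and passed with DESeq2 (adjusted p = 0.0366) and in the 41 libraries without (adjusted p = 0.0162) and with the run as a term (adjusted p = 0.0181). Dbp, a transcription factor that the clock drives directly, was 12.7, 13.8 and 73.2 CPM at ZT4 and 16.3, 36.8, 53.6 and 43.6 CPM at ZT16. Its groups overlapped, and its log2 fold change went from 0.16 (adjusted p = 0.943) to 1.48 (adjusted p = 0.451) without that library. Nr1d2, the REV-ERB beta gene, was 57 to 81.6 CPM at ZT4 and 61.0 to 96.6 CPM at ZT16, with a change of 0.14 (adjusted p = 0.846). Clock had a change of -0.03 (adjusted p = 0.929).

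**Figure D1:**
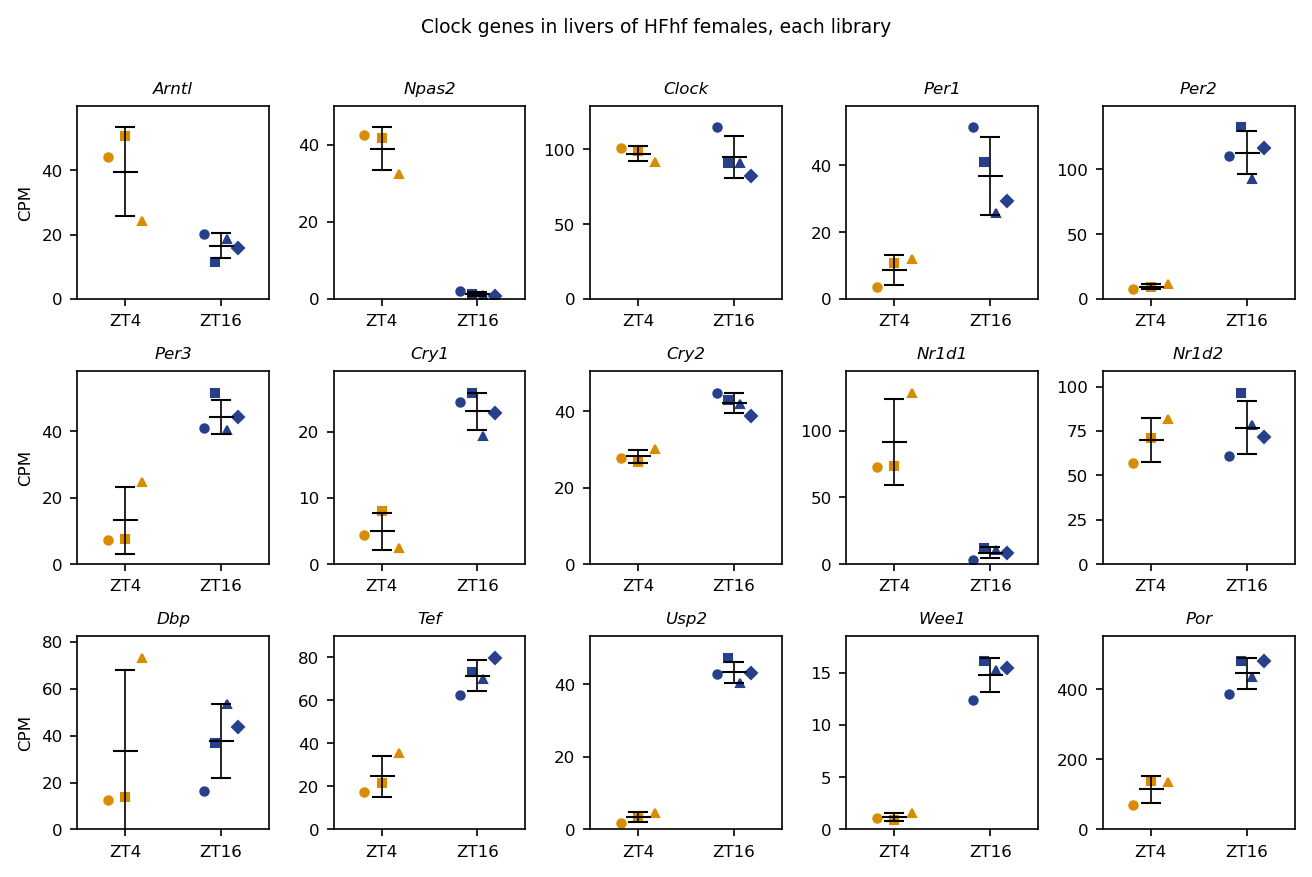
Clock genes in the 7 HFhf female libraries, in CPM (vertical axes, linear, each from 0) at ZT4 (3 libraries) and ZT16 (4 libraries). Circle, square, triangle and diamond are replicates 1 to 4, bars the mean and SD; the triangle at ZT4 stands apart in Arntl, Per3 and Dbp.

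Outside the clock the largest changes were in genes of varied roles. Zfp354a, a zinc-finger gene, was 8.18, 9.09 and 14.2 CPM at ZT4 and 148, 159, 113 and 94.6 CPM at ZT16 (3.61, SE 0.74, adjusted p = 0.00148). Nat8, an acetyltransferase of cysteine conjugates, was 1.22 to 3.52 CPM at ZT4 and 18.2 to 31.1 CPM at ZT16 (3.03, adjusted p = 0.000334). Both were separated between the times in every library. Tsku, a secreted protein, rose by 2.32 (adjusted p = 0.00439), and Acpp, an acid phosphatase, fell by 2.43 on the log2 scale (14.5 to 17.8 CPM against 2.10 to 4.30 CPM, adjusted p = 2.97e-05). Ptk6, a tyrosine kinase, had -2.60 (adjusted p = 0.00304). Abhd3, a lipase of phospholipids, ran from 7.17 to 45.3 CPM at ZT4 and from 0.265 to 4.38 CPM at ZT16. Its change of -3.03 (adjusted p = 0.0256) did not pass without ZT4 replicate 1 (adjusted p = 0.28), ZT16 replicate 1 (adjusted p = 0.079) or ZT16 replicate 3 (adjusted p = 0.059), with the 7 libraries alone (adjusted p = 0.11) or with DESeq2 (adjusted p = 0.065).

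Of 16 clock output factors tested, 5 rose and none fell, against 4.84% and 4.31% of all genes tested. The list median was 0.712. Wee1, a kinase that holds back mitosis, was 1.13, 0.874 and 1.57 CPM at ZT4 and 12.4, 16.1, 15.2 and 15.4 CPM at ZT16. The groups were well separated (3.59, SE 0.45, adjusted p = 2.34e-06). Usp2, a deubiquitinase, was 1.89 to 4.57 CPM at ZT4 and 40.3 to 47.3 CPM at ZT16 (3.71, SE 0.61, adjusted p = 0.000106). Por, the electron donor of microsomal cytochromes P450, was 69.0, 138 and 136 CPM at ZT4 and 388, 481, 435 and 480 CPM at ZT16 (1.96, SE 0.40, adjusted p = 0.00143). Tsc22d3, a glucocorticoid-induced leucine zipper gene, rose by 1.49 (adjusted p = 0.000932), and Tef, a factor of the DBP family, by 1.53 (adjusted p = 0.00458), a call lost without ZT4 replicate 1 (adjusted p = 0.063).

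The 250 bases upstream of the start sites of these genes were searched for clock motifs. Of the 11 called core clock and clock output genes 9 rose and 2 fell; 9 of the 11 had an entry in the RefSeq table (build GRCr8). Motifs were the E-box CACGTG, the E-prime box CACGTT, the D-box TTATGTAA or TTACGTAA and the REV-ERB/ROR core TAGGTCA, on both strands. The E-box and the E-prime box differ in their last base, so no match counts as both. A cyclic AMP element TGACGTCA, a sterol element TCACNCCAC and the heat shock element core GAANNTTC were searched too; none stood in the 9, against 1.59%, 0.974% and 7.23% of all promoters. An E-prime box stood in 3 of the 9 (Per2, Cry2, Nr1d1) and in 4.07% of all 33469 promoters of this length. The E-box stood in 1, Tef, against 5.59% of all. A D-box stood in 1, Per2, against 0.932%, and the REV-ERB/ROR core in 1, Por, against 2.26%. Matches are printed in capitals in the 3 upstream windows that show an E-box type motif in a gene with a large change, Per2 (chr9:99496994-99497243, minus strand), Nr1d1 (chr10:84231813-84232062, minus strand) and Tef (chr7:115206577-115206826, plus strand), read 5' to 3' on the gene's strand.
Per2: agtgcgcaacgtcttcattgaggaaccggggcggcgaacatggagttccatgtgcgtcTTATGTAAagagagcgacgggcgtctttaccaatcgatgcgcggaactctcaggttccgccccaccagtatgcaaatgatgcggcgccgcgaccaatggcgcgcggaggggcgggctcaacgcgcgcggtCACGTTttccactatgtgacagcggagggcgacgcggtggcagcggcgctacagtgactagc
Nr1d1: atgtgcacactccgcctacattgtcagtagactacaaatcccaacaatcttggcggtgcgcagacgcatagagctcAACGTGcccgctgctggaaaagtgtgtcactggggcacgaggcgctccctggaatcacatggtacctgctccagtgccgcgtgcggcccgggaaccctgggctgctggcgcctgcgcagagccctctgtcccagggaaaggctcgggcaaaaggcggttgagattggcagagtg
Tef: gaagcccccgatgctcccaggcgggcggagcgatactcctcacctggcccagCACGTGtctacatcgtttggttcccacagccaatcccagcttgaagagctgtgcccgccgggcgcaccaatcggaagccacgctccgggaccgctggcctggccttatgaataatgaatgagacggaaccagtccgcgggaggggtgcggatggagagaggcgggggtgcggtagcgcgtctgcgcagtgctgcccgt

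In Per2 the D-box began 192 bases before the start and the E-prime box 62 bases before it. Nr1d1, which fell while Per2 rose, also held an E-prime box. A match is a description of letters only.

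Few genes of carbohydrate handling were called, 1 higher and 1 lower among 31 of glycolysis and fructose use, 1 and 1 among 20 of gluconeogenesis, and 2 and 1 among 17 of glycogen metabolism. These counts lie near the 4.84% and 4.31% of all genes tested, so the genes are described singly. Gckr, the regulatory protein that holds glucokinase, was 292, 272 and 269 CPM at ZT4 and 131, 81.2, 79.8 and 81.8 CPM at ZT16 (-1.57, SE 0.26, adjusted p = 8.28e-05). Slc2a2, the glucose transporter GLUT2, was 295 to 400 CPM at ZT4 and 635 to 675 CPM at ZT16, without overlap (0.96, SE 0.21, adjusted p = 0.00299). Of the glycogen genes, Ppp1r3b and Gys2 rose and Pygl fell. Ppp1r3b, which targets a phosphatase to glycogen, was 239, 238 and 331 CPM at ZT4 and 699, 564, 661 and 468 CPM at ZT16 (1.15, SE 0.27, adjusted p = 0.00463). Pygl, liver glycogen phosphorylase, was 401 to 440 CPM at ZT4 and 253 to 293 CPM at ZT16, also without overlap (-0.60, adjusted p = 0.00315). Gys2, liver glycogen synthase, had 0.74 (adjusted p = 0.0291), lost without any one of the 3 ZT4 libraries or of ZT16 replicates 2 and 4 (adjusted p from 0.06 to 0.12).

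Of 44 genes of fatty acid oxidation and PPAR alpha targets 2 rose and 4 fell, against 4.84% and 4.31% of all genes tested. Fgf21, a liver hormone of fasting and nutrient stress, was 34, 22.7 and 135 CPM at ZT4 and 4.50, 5.07, 6.21 and 6.78 CPM at ZT16. ZT4 replicate 3 was the highest, and the log2 fold change of -3.52 (SE 0.60, adjusted p = 0.000188) was -2.36 without it (adjusted p = 0.017). Bdh1, the hydroxybutyrate dehydrogenase of ketone body metabolism, fell by 0.66 on the log2 scale. Ehhadh, a peroxisomal oxidation enzyme, went the other way: 233, 360 and 355 CPM at ZT4 against 810, 466, 754 and 658 CPM at ZT16 (1.09, SE 0.20, adjusted p = 0.000455). In cholesterol synthesis and uptake 1 of 27 rose and 1 fell, near the shares of all genes tested. In bile acid and sterol transport 1 of 26 rose and 4 fell. Cyp8b1, the sterol 12-alpha-hydroxylase, was 239, 286 and 486 CPM at ZT4 and 69.8, 113, 57.6 and 46.8 CPM at ZT16, so the groups were apart (-2.23, SE 0.35, adjusted p = 6.44e-05).

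In the insulin and feeding response 8 of 31 genes fell and none rose, against 4.31% and 4.84% of all genes tested. The list median was -0.161, and Fgf21, above, was among the 8. Gdf15, a stress hormone, was 10.7, 10.1 and 6.53 CPM at ZT4 and 1.72, 2.10, 3.05 and 1.64 CPM at ZT16 (-2.11, SE 0.49, adjusted p = 0.00463). Socs2, a brake on growth hormone signalling, was 89.5, 25.9 and 22.1 CPM at ZT4 and 5.42 to 10.8 CPM at ZT16 (-2.44, adjusted p = 0.00297); without ZT4 replicate 1, its highest library, the adjusted p was 0.14, and with the 7 libraries alone it was 0.0638. Stat5b, which relays that hormone's signal, is not on the insulin and feeding response list. It was 53.3 to 58.1 CPM at ZT4 and 28.3 to 36.4 CPM at ZT16 (-0.81, adjusted p = 0.000908). Its own list, sex-dependent growth hormone targets, had 3 falls and no rise among 25 genes tested. Without ZT4 replicate 1, and without ZT4 replicate 3, the insulin and feeding response list had 4 genes called lower.

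Of 47 genes of drug metabolism and nuclear receptors 9 rose and none fell, against 4.84% and 4.31% of all genes tested. The list median was 0.272. Cyp2b2, a xenobiotic-metabolising cytochrome P450, was 0.126, 2.45 and 1.30 CPM at ZT4 and 26.1, 7.78, 75.9 and 27.7 CPM at ZT16. It had the largest rise (4.82, SE 1.0, adjusted p = 0.00165) though its ZT16 libraries spread widely, and it did not pass with the 7 libraries alone (adjusted p = 0.0792). Cyp2b1, a near-identical gene with which it may share reads, was 0 to 0.35 CPM at ZT4 and 1.57 to 7.90 CPM at ZT16, a call (adjusted p = 0.00596) lost without ZT4 replicate 3 (adjusted p = 0.052). Nr1i2, the receptor PXR, had 0.82 (adjusted p = 0.00354, and adjusted p = 0.051 without ZT4 replicate 1). The list had 4 genes called higher without ZT4 replicate 1 and 5 without ZT4 replicate 3.

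Some heat shock genes rose, but the calls depended on single libraries. Of 22 tested heat shock genes 10 rose and none fell, against 4.84% and 4.31% of all genes tested. The list median was 0.51. Chordc1, a partner of HSP90, was 31.1, 33.2 and 19.6 CPM at ZT4 and 47.2, 68.7, 68.1 and 66.1 CPM at ZT16. The groups did not overlap (1.16, SE 0.27, adjusted p = 0.00469), and the adjusted p was 0.069 without ZT4 replicate 3. Hspd1, the mitochondrial chaperonin, was 69.3 to 91.8 CPM at ZT4 and 107 to 139 CPM at ZT16 (0.59, adjusted p = 0.00246, and adjusted p = 0.056 without ZT4 replicate 3). The heat shock list kept no called gene without ZT4 replicate 3, 3 without ZT4 replicate 1 and 3 without ZT16 replicate 4. Reads of Hspa1a and Hspa1b, near-identical copies, cannot be told apart here. A heat shock element core GAANNTTC stood upstream in 10 of the 17 tested list members with a promoter entry, against 7.23% of all promoters, and in 4 of the 8 that were called.

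Among 28 genes of the unfolded protein response 7 fell and 1 rose, against 4.31% and 4.84% of all genes tested. The list median was -0.263. Atf4, a transcription factor of the integrated stress response, was 179, 150 and 182 CPM at ZT4 and 108, 107, 116 and 114 CPM at ZT16 (-0.61, SE 0.14, adjusted p = 0.00386). Chac1, which degrades glutathione, overlapped between the times (0.699 to 5.35 CPM and 0.656 to 0.992 CPM), with a change of -2.04 (adjusted p = 0.00778) that was lost without ZT4 replicate 3 (adjusted p = 0.13). The unfolded protein response list had 2 genes called lower without ZT4 replicate 1 and 10 without ZT4 replicate 2.

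Cell division genes rose in 9 of 34 cases and fell in none, against 4.84% and 4.31% of all genes tested. The list median was 0.338, and Wee1 is on the list too. Tk1, thymidine kinase, was 3.52, 4.89 and 6.13 CPM at ZT4 and 9.52, 8.04, 12.2 and 12.7 CPM at ZT16 (1.12, SE 0.24, adjusted p = 0.00169). Mcm6, a subunit of the replicative helicase, was 1.96 to 3.78 CPM at ZT4 and 5.62 to 13 CPM at ZT16 (1.74, adjusted p = 0.00458, and adjusted p = 0.056 without ZT4 replicate 3). The cell division list had 3 genes called without ZT4 replicate 1 and 5 without ZT4 replicate 3.

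Immediate early genes fell in 4 of 21 cases, and 4 of 28 genes of fibrosis and matrix fell, against 4.31% of all genes tested. Neither list had a rise. Jund, a subunit of AP-1, was 66.6 to 94.4 CPM at ZT4 and 30.8 to 56.3 CPM at ZT16 (-0.89, SE 0.19, adjusted p = 0.00221). Col4a1, a basement membrane collagen, was 70.9, 63.3 and 68.1 CPM at ZT4 and 29.2, 39, 34.5 and 44.5 CPM at ZT16 (-0.88, SE 0.19, adjusted p = 0.00183). Pdgfrb, a receptor of mesenchymal cells, was 30.2 to 42.3 CPM at ZT4 and 13.7 to 15.7 CPM at ZT16 (-1.23, adjusted p = 0.00209). The summed stellate cell markers ran from 358.6 to 414.7 CPM at ZT4 and from 276.2 to 390.5 CPM at ZT16, overlapping, and their part in the matrix genes was not tested. Without ZT4 replicate 1 the immediate early list had 1 gene called lower and the fibrosis and matrix list had 2.

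Further lists had calls in both directions or few calls, where 4.84% of all genes tested rose and 4.31% fell. Psmb9, an immunoproteasome subunit, fell by 1.15 on the log2 scale (adjusted p = 5.21e-05), and was 1 of the 2 genes that fell among 28 of the interferon response. Kynu, kynureninase, fell by 1.20 (adjusted p = 0.000109), and Arg1, the urea cycle arginase, rose by 1.08 (adjusted p = 0.00102), among 41 genes of amino acid breakdown and urea cycle of which 3 rose and 4 fell. Of 24 heme and iron genes 2 rose and 4 fell, and the NRF2 and oxidative stress list, with 26 tested, had 3 genes higher and 3 lower. Without ZT4 replicate 1 these were 1 and 2, and 2 and 1. Tfrc, the transferrin receptor, was 40.5, 31.8 and 23.0 CPM at ZT4 and 76.7, 103, 81.2 and 54.2 CPM at ZT16 (1.31, adjusted p = 0.00272). Ftl1, the ferritin light chain and a member of both lists, moved the other way (-0.91, adjusted p = 0.000848), and its reads may be shared with copies. Sod2, the mitochondrial superoxide dismutase, and Gclc, which makes glutathione's precursor, rose by 0.68 and 1.16. Neither the 57 cytosolic ribosome genes nor the 56 oxidative phosphorylation genes had a call in edgeR, with 9 and 5 genes at an unadjusted p under 0.05. DESeq2 called none in either list.

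**Figure D2:**
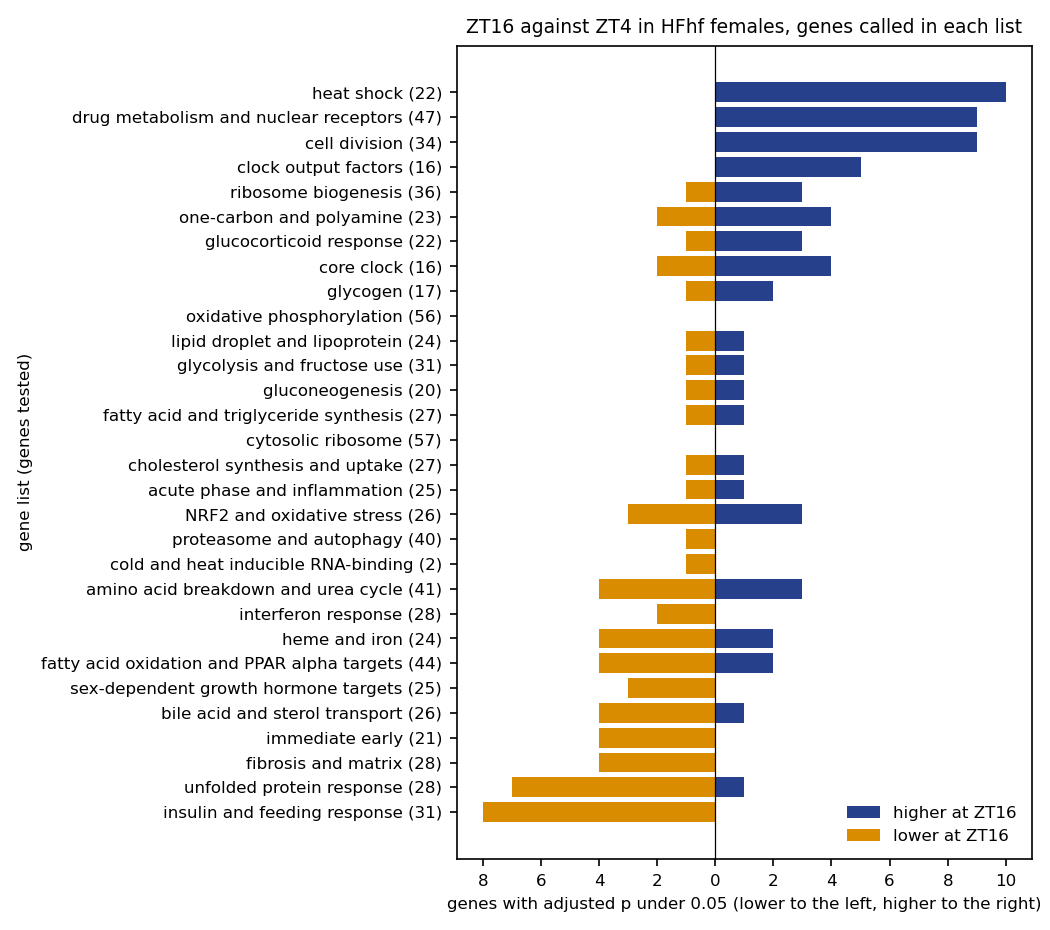
Genes called in each of 30 gene lists (rows, with the number tested), higher at ZT16 to the right and lower to the left. The longest bars are 10 of 22 heat shock genes higher and 8 of 31 insulin and feeding response genes lower.

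**Figure D3:**
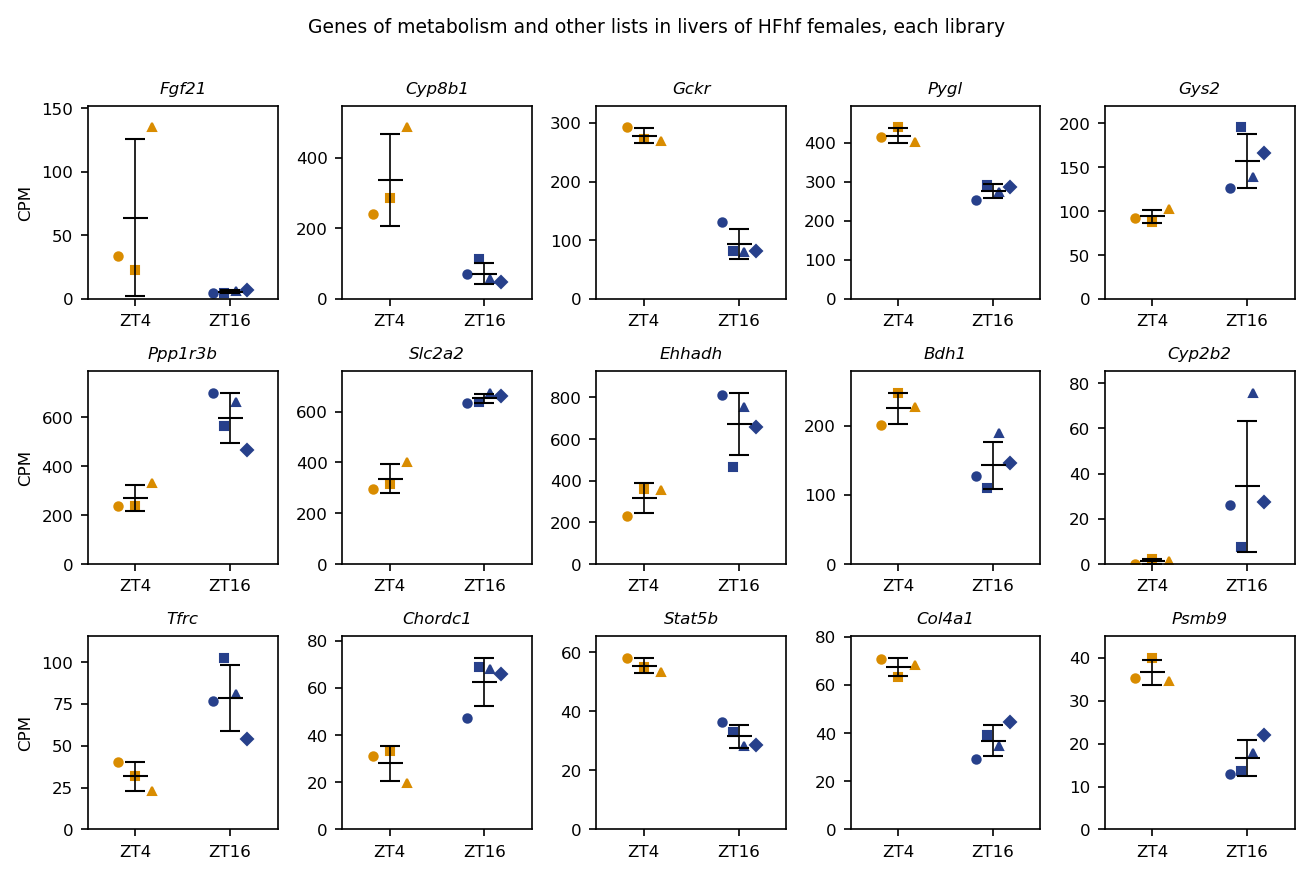
Genes of the other lists in the same 7 libraries, in CPM (linear axes from 0), with symbols as replicates 1 to 4 and bars the mean and SD. Fgf21 at ZT4 ranges from 22.7 to 135 CPM, while Pygl and Stat5b are tight at both times.

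**Figure D4:**
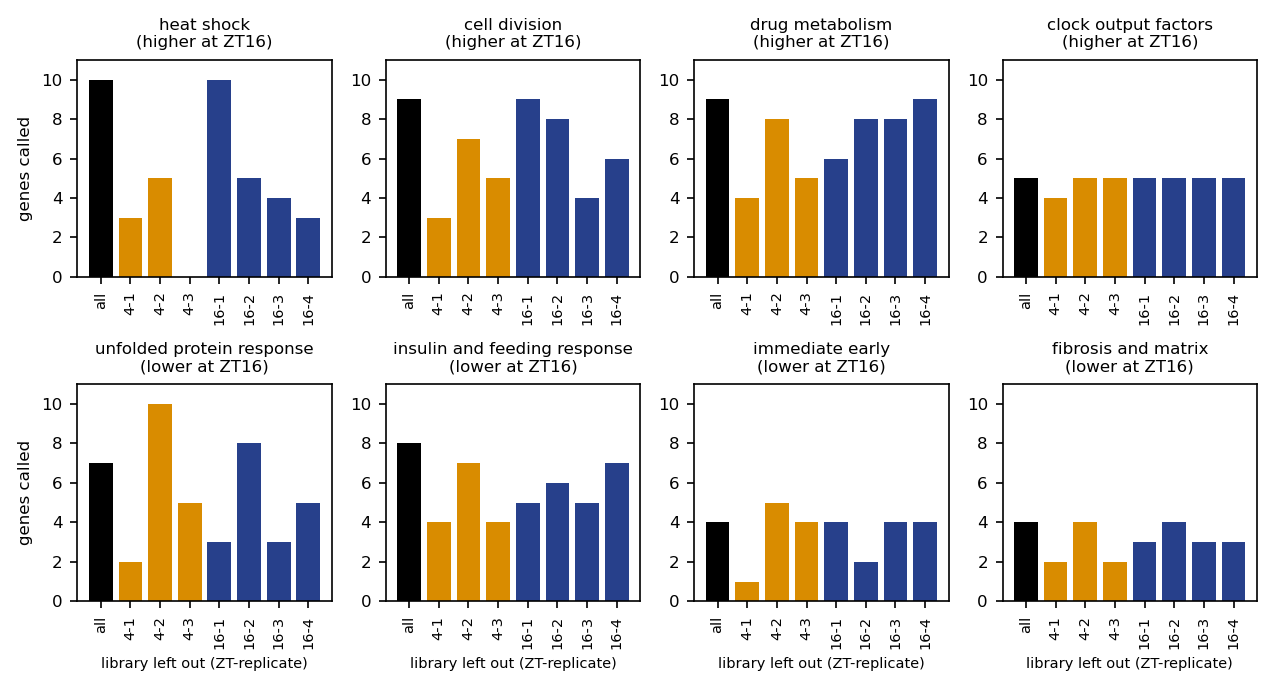
Genes called in 8 lists with all 7 libraries (all) and with each left out in turn; 4-1 stands for ZT4 replicate 1, and bars are counts from 0. The heat shock count runs from 10 with all libraries to 0 without ZT4 replicate 3.

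The same times were compared in the other groups, which share no library with these 7. Across the 11047 genes, the Pearson correlation of the log2 fold changes with those in HFhf females was 0.506 for CON females, 0.459 for IUGR-HFhf females and 0.167 for HFhf males, a description with no test. The number of genes called was 639 in CON females (5.78%), 878 in IUGR-HFhf females (7.95%) and 489 in HFhf males (4.43%). Of the 535 genes that rose in HFhf females, 149 rose in CON females, 213 in IUGR-HFhf females and 57 in HFhf males. Of the 476 that fell, 171, 169 and 39 fell there, and none of the 1011 was called the opposite way in any of the 3 groups.

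Nr1d1 had the smallest p for a difference from CON females. There it was 20.8, 25.4 and 19.8 CPM at ZT4 and 23.2, 32.3 and 35 CPM at ZT16, a change of 0.45, against -3.41 in HFhf females. The difference of -3.86 missed the threshold over all genes (unadjusted p = 7.01e-06, adjusted p = 0.0668), but it passed with DESeq2 (adjusted p = 0.0032) and in the 41 libraries without IUGR-RC (adjusted p = 0.0239). With each of 13 libraries of both diets left out in turn the adjusted p ran from 0.046 to 0.481, and the difference from -4.1 to -3.54; it passed without HFhf female ZT4 replicate 2 (adjusted p = 0.049) and without CON female ZT16 replicate 1 (adjusted p = 0.046). No gene (0%) passed this difference in edgeR, at 484 genes with an unadjusted p under 0.05, and DESeq2 called 4. Arntl fell by 3.66 in CON females and Dbp rose by 4.88 there, while HFhf females had -1.25 and 0.16; these differences did not pass either (adjusted p = 0.855 and adjusted p = 0.60). None (0%) passed against IUGR-HFhf females in edgeR, at 450 genes with an unadjusted p under 0.05, and DESeq2 called 3. A p that misses the threshold does not show that the time effects are alike.

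HFhf males differed more. The signed log2 change over time was higher in females than in males for 112 genes (1.01%) and lower for 133 (1.2%). Of these 245 genes 228 had opposite signs in the sexes, which selection by the difference itself favours. The time effect was called in females alone for 127, in males alone for 72, in both for 1 and in neither for 45. Among the 112 the median change was 0.478 in females and -0.32 in males, and among the 133 it was -0.417 and 0.451. Nr1d2 changed by 0.14 in females and -1.70 in males (difference 1.84, adjusted p = 0.0303); its male libraries were 91.6 to 122 CPM at ZT4 and 21.3 to 42.5 CPM at ZT16. Npas2 fell by 4.87 in females and had -1.28 in males (difference -3.59, adjusted p = 0.0329). Per2 had 3.59 and 1.54 (difference 2.05, adjusted p = 0.0462). Of the cytosolic ribosome genes, 11 of 57 had a lower signed change in females than in males. So had 5 of 56 oxidative phosphorylation genes and 3 of 24 heme and iron genes, with none higher in these lists. The ribosome count was 1 without HFhf female ZT4 replicate 1, 1 without HFhf male ZT4 replicate 3, 3 without HFhf male ZT4 replicate 1 or ZT16 replicate 2, and 5 to 16 with each other library left out. Within males, 18 of the 57 ribosome genes and 20 of the 56 oxidative phosphorylation genes rose and none fell, where 4.43% of all genes were called. Within females none of either list was called. The counts within males were not repeated with libraries left out.

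These sex differences depended on single libraries. Leaving out HFhf male ZT4 replicate 3 left 2 genes, leaving out HFhf female ZT4 replicate 1 left 10, and leaving out HFhf male ZT4 replicate 1 left 27; leaving out HFhf male ZT4 replicate 2 gave 451. The differences of Nr1d2, Npas2 and Per2 no longer passed the test without HFhf female ZT4 replicate 1, or without either of HFhf male ZT4 replicates 1 and 3, among other libraries. Over the 14 left-out fits Nr1d2 and Npas2 passed in 8 each and Per2 in 2. The sizes of these differences changed little, from 1.68 to 1.99 for Nr1d2, from -3.96 to -3.23 for Npas2 and from 1.90 to 2.21 for Per2. HFhf male ZT16 replicate 3 held 124 CPM of Acta1, the skeletal muscle actin, against at most 2.73 CPM in the other HFhf male libraries; without it and 3 other libraries of the study that stood apart, 338 genes differed.

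**Figure D5:**
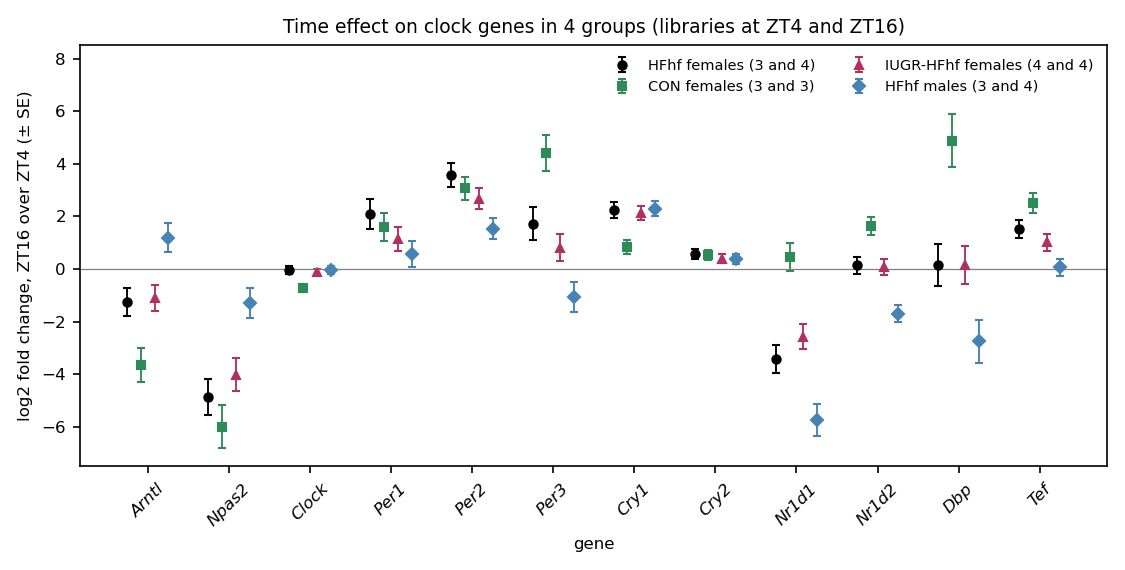
Log2 fold change of ZT16 over ZT4 with its SE (vertical axis) for 12 clock genes (horizontal axis) in HFhf females, CON females, IUGR-HFhf females and HFhf males. For Nr1d1 HFhf females are at -3.41, CON females at 0.45 and HFhf males at -5.75.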

How the data were processed

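Liver RNA was sequenced in 56 libraries of 16 groups by sex, diet and time, as stranded libraries depleted of ribosomal RNA, per the labels' protocols. The molecule label reads polyA RNA. The submitters' processing notes name FastQC, STAR, Subread, featureCounts and DESeq2 with genome build rn6; versions and the strand setting of the counting are not given in the sources used here, so reads of overlapping antisense genes may be mixed. The authors' deposited table holds raw read counts per gene for 17337 genes, 2487 of them with no read in any library. The authors' tables of diet effects were not used.

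All libraries entered a single edgeR 4.0.16 fit (R 4.3.3; filterByExpr, TMM scaling, robust quasi-likelihood tests, 1 mean per group, 40 residual degrees of freedom) over 11047 genes. The time effect and its differences between groups were contrasts. Tests were two-sided, with p-values adjusted by Benjamini-Hochberg within each comparison. Standard errors are the log2 fold change over the root of F, and the 95% interval reached 0.39 to either side at the median. A difference is the time effect in HFhf females minus that of the other group. Replicate pairs of the 7 libraries had a chi-square per degree of freedom of 18.1 to 56.4, where counting error gives 1, so none was counted as a duplicate. The fit was tested on counts simulated from its own model and dispersions, which cannot check unequal spread or libraries that stand apart.

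The members and gene lists (864 tested entries in 30 pathway lists) were chosen with earlier results of these data known. Genes named were the core clock genes, the 10 genes with the highest and the 10 with the lowest log2 fold change among those called, with at least 1 CPM on average and no overlap between times, up to 4 called genes by smallest p in each list, and the 4 largest in each direction of each difference; 2 of these genes are not reported here. Alternatives were DESeq2 1.42.0, other scaling, no filter, other sets of libraries, a term for the lower or upper run of title numbers, a fold limit and leaving out single libraries. Thinning to equal depth, and leaving out libraries of the other groups, were chosen after seeing the data. Promoter sequences are RefSeq's, build GRCr8; genome coordinates of the counts were not used.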

Additional observations from a re-analysis of the deposited data

Results flagged for a closer look

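In 3 of 108 named genes the libraries at ZT16 held 1 value far from the other 3, by the gap to its neighbour over the whole range; chance gives about 1 in 20 groups. Nat8 was 31.1 CPM in replicate 2 against 18.2 to 20.03 CPM in the others. Chordc1 was 47.2 CPM in replicate 1 against 66.1 to 68.7 CPM, and Gckr was 131 CPM in the same library against 79.8 to 81.8 CPM. Groups of 3, such as ZT4, were not tested.

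For 13 of the named genes the time effect differed between HFhf females and HFhf males at an adjusted p under 0.05 in edgeR. The signed log2 change in females minus that in males was 2.05 for Per2, 1.84 for Nr1d2, 1.75 for Timeless, 1.56 for Ptp4a1 and 1.31 for Pik3r1. The difference was -3.59 for Npas2, -3.11 for Fgf21, -2.65 for Gdf15, -2.65 for Tubb2a, -1.33 for Ftl1, -1.15 for Tap1, -1.07 for Ppox and -0.981 for Hfe2. Timeless, a partner of the replication fork, was 4.15, 4.20 and 6.40 CPM at ZT4 and 9.26, 16.4, 18.6 and 14.3 CPM at ZT16 in females. Each of the 13 lost its call without HFhf male ZT4 replicate 3. Of all 14 left-out fits Ftl1 kept its call in 13, Timeless and Pik3r1 in 11, and Ppox, Ptp4a1 and Tubb2a in 10. Npas2 and Nr1d2 kept it in 8, Hfe2 and Tap1 in 6, Fgf21 and Gdf15 in 3, and Per2 in 2. The difference of Fgf21 ran from -3.52 to -1.95 over these fits. The causes were not tested.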

How the results depend on the processing

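Main counts were 535 higher and 476 lower. With a log2 change of at least 1 they were 109 and 92. With each of the 7 libraries left out in turn they ran from 168 to 464 higher and from 211 to 494 lower. The other alternatives stayed within 1.5 times: 441 (no filter) to 781 higher and 375 (7 libraries alone) to 704 lower. The upper ends came from the 41 libraries without IUGR-RC with the run of title numbers as a term; the 41 libraries without that term had 746 and 668. For HFhf females minus CON females the count went from 0 to 4 in the 41 libraries without IUGR-RC, 4 in those 41 with the run term, 3 without the 4 libraries that stood apart, 3 with the compared libraries alone and 4 in DESeq2, and to 0 to 2 with a library left out. For females minus males it was 245, and 135 with no filter, 511 in the 41 libraries, 419 in those 41 with the run term, 425 in DESeq2 and 83 with a change of at least 1; it ran from 2 to 451 with a library left out. For females minus IUGR-HFhf females it was 0, and 1 in the 41 with the run term and 3 in DESeq2. The cause of these changes was not tested, except that a fold limit keeps fewer genes by construction. A left-out library leaves fewer samples, and the counts without a library went both down and up. No result reversed.

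No paired analysis was possible because the labels give the libraries no shared replicate numbers. The ZT4 group has 3 libraries, and they bore unequally on the calls. Of 100 called named genes 45 lost theirs without ZT4 replicate 1, 35 without ZT4 replicate 3 and 13 without ZT4 replicate 2. Why these libraries differed was not tested. Depth differed with time. Levels cannot be compared between genes, since no gene lengths were used. The dispersion of each gene was common to all groups, so unequal spread was not modelled.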

Other observations

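Genes of polyamine metabolism, not described above, also differed between ZT16 and ZT4 in the livers of HFhf females. Over all genes tested 4.84% rose and 4.31% fell. Of 23 genes of one-carbon and polyamine metabolism 4 rose and 2 fell, with a list median of 0.187; with each library left out, 1 (without ZT4 replicate 1 or 3) to 5 (without ZT16 replicate 3) rose and 1 or 2 fell. Oaz1, the antizyme that inhibits polyamine synthesis, was 143 to 157 CPM at ZT4 and 80.01 to 95.1 CPM at ZT16, without overlap (-0.75, adjusted p = 0.000665 in edgeR's quasi-likelihood test). Odc1, ornithine decarboxylase, the enzyme that Oaz1 inhibits, went from 40.02 to 56.6 CPM at ZT4 to 65.9 to 87.4 CPM at ZT16 (0.72, adjusted p = 0.00268), a call lost without ZT4 replicate 1 (adjusted p = 0.053). Of 22 genes of the glucocorticoid response 3 rose and 1 fell, and 2 of the 3 are Per1 and Tsc22d3, given above with the clock genes. The other, Pik3r1, a regulatory subunit of PI3-kinase, was 71.2 to 88.6 CPM at ZT4 and 124 to 187 CPM at ZT16 (0.94, adjusted p = 0.00323). Apoa5, an apolipoprotein of triglyceride clearance, was 764 to 839 CPM at ZT4 and 488 to 593 CPM at ZT16 (-0.55, adjusted p = 0.00999), the only fall among 24 genes of lipid droplets and lipoproteins, of which 1 rose.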
